A study of Mus musculus with 12 samples.

Results

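The Myc, Max and Mxd network is a set of transcription factors that pair through a helix-loop-helix and leucine zipper domain. It was followed here through 10 genes taken by symbol from the table of 24411 gene symbols, namely Myc, Mycn, Mycl, Max, Mxd1, Mxd3, Mxd4, Mxi1, Mnt and Mlx. RNA was measured in HoxB8 cells, a mouse bone marrow line immortalised by a conditional Hoxb8, 24 h after the estrogen that keeps Hoxb8 active was withdrawn. Each population carried 2 vectors, pMIG (empty, or with the Asxl1 truncation Asxl1-MT2) and pMICH (empty, or with the receptor mutant CSF3R T618I). The design asks how the truncation and the receptor mutant, alone and together, act on these cells. The group with both vectors empty is Empty/Empty, the groups with 1 construct are Asxl1-MT2/Empty and Empty/T618I, and the group with both is Asxl1-MT2/T618I. Each has 3 libraries, and all share the HoxB8 line, the culture medium with stem cell factor and the withdrawal of estrogen. The constructs were overexpressed on top of the cells' own genes, in 1 immortalised line.

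MYC binds DNA as a partner of MAX, mostly at the E-box CACGTG, and raises genes of ribosome assembly, nucleotide synthesis and growth. MXD1, MXI1 (also called MXD2), MXD3, MXD4 and MNT also need MAX, occupy the same sites and recruit SIN3 and histone deacetylases, so that they act against MYC. In the myeloid lineage MYC is known to fall and MXD1 to rise as progenitors mature into granulocytes.

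Promoter sequence was available from RefSeq (build GRCm38.p6, 250 bases before to 50 bases after each start site) for 9 of the 10 genes, in 11 promoters. The E-box CACGTG, which reads the same on both strands, occurred in the promoters of Max, Mxd4, Mnt and Mlx. The 30-base windows around it are shown because the site is the one that the network itself binds; capitals mark the E-box, and each window is written 5′ to 3′ on the strand of its gene.
Max, minus strand, within chr12:76962199-76962498: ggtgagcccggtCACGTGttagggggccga
Mxd4, minus strand, within chr5:34187661-34187960: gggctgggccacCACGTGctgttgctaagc
Mnt, plus strand, within chr11:74830674-74830973: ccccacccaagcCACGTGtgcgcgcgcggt
Mlx, plus strand, within chr11:101087040-101087339: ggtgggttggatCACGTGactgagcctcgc
The first base of the E-box lay 3 bases before the start site in Max, 40 in Mlx, 123 in Mnt and 219 in Mxd4. These letters were in 7.15% of the 32851 promoters of the same length, and in 8.09% of the 27025 genes these belong to. No match was found in these windows of Mxd1, Mxd3, Mxi1, Mycn or Mycl.

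The Mxd1 promoter is printed whole because Mxd1 had the largest ratio between its highest and lowest group mean among the members above 5 CPM; it lies on the minus strand at chr6:86669110-86669409. Capitals mark CCAAT as read on the printed strand.
Mxd1: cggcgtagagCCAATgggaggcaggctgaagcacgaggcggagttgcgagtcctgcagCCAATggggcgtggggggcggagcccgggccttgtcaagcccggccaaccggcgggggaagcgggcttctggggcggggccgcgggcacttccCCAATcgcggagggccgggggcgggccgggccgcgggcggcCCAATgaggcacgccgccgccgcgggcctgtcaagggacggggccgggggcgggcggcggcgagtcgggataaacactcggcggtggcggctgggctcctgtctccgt
This window is 76.7% G and C, against a median of 52.7% over all promoters. It holds 4 CCAAT matches when both strands are searched, and 1.06% of promoters hold at least as many. Among the members CCAAT was counted for Mxd1 only, so this share is a description and no result. The motif TTCNNNGAA, the palindromic form that STAT factors bind, was in none of the 9 genes' promoters and in 9.55% of all genes. TTGCNNAA, a form bound by C/EBP factors and searched on both strands, was in Mxd4 alone among the 9, and in 12.2% of all genes. A match is a description of the letters in the window.

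Library totals ran from 9341984 to 10252291 counts, and 11578 symbols entered the tests. The mean level of Asxl1, in CPM (counts scaled to a common library total), was 1744 in Asxl1-MT2/Empty cells and 1004 in Asxl1-MT2/T618I cells, against 119 in Empty/Empty cells and 149 in Empty/T618I cells; whether construct reads were counted to this gene is not given in the sources used here. Socs3, a feedback inhibitor induced by CSF3R signalling, averaged 12.7 CPM in Empty/Empty cells, 165 in Empty/T618I cells, 10.7 in Asxl1-MT2/Empty cells and 229 in Asxl1-MT2/T618I cells. One library titled Empty/Empty carries a genotype label that names T618I; its column letter is not known, and Socs3 lay between 11.9 and 13.8 CPM in the 3 libraries of that group. Neutrophil lineage markers summed to 34967 to 43976 CPM across the Empty/Empty libraries, 19068 to 22446 in those of Empty/T618I, 39236 to 44823 in those of Asxl1-MT2/Empty and 38589 to 42189 in those of Asxl1-MT2/T618I. Such sums are weighted to the most abundant genes and hide opposite moves. For T618I alone, 6 of the 17 tested neutrophil markers were higher and 8 lower in edgeR, beside 17.6% and 15.9% of all genes. From Empty/Empty to Asxl1-MT2/T618I, 10 were higher and 5 lower, beside 27.5% and 23.1%. Mast cell and basophil markers summed to 1512 to 1683 CPM across the Empty/Empty libraries and 1061 to 1130 in those of Asxl1-MT2/Empty. With T618I they summed to 3927 to 7350. For Asxl1-MT2 alone, 6 of these 16 markers were lower and 0 higher in edgeR, beside 0.622% and 1.24% of all genes. Monocyte markers summed to 597 to 681 CPM in Empty/Empty and 756 to 849 in Asxl1-MT2/Empty. They summed to 528 to 579 in Empty/T618I and 1033 to 1415 in Asxl1-MT2/T618I. From Empty/T618I to Asxl1-MT2/T618I, 12 of 17 tested neutrophil markers and 8 of 9 monocyte markers rose and 8 of 16 mast cell and basophil markers fell, in edgeR. There, 25.4% of all genes were higher and 18.5% lower. Hoxb8 averaged 661 CPM with both vectors empty, 291 with T618I, 720 with Asxl1-MT2 and 571 with both constructs. Whether reads of the conditional Hoxb8 were counted to this gene is not given in the sources used here. Megakaryocyte and erythroid markers summed to 34.8 to 60.9 CPM in the groups without T618I and 92.4 to 200.1 with it. Of these, Itga2b, a platelet integrin gene, averaged 49.0 CPM with both vectors empty and 162 with T618I alone. Itga2b rose with T618I alone by 1.73 ± 0.148 (log2 fold change ± SE, adjusted p = 8.51e-08, edgeR). Car1, Epor and Klf1 were also called higher. These genes passed the low-count filter only through the T618I groups, where they are high, so their calls are no result. Gp9 (2.50 CPM with both vectors empty, 0.56 with T618I alone) passed it only through the groups without T618I, so its call as lower is no result either. Pf4 was not called (2.56 and 1.61). The globins Hbb-bt and Hba-a1 were at 0 in all 12 libraries. Lymphoid markers summed to 21.7 to 29.7 CPM without T618I and 38.1 to 92.1 with it. Within that list the cytokine receptor gene Il7r averaged 0.034 CPM with both vectors empty and 69.3 with T618I alone, the surrogate light chain gene Igll1 19.5 and 0.42, and Cd3e, Pax5 and Ncr1 were at 0 throughout. The part of these marker differences in the network's levels was not tested, and in bulk RNA fewer cells of a type and less RNA per cell cannot be told apart. No label ties the 3 libraries of a group to separate cultures; the p-values then measure only how far these libraries spread, and that spread may be technical.

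The network shifted in the cells with both constructs. In Asxl1-MT2/T618I, Myc was 1.82-fold lower than in Empty/T618I, Mxd1 3.89-fold higher and Mxi1 2.23-fold higher. T618I alone raised Mxd1 2.45-fold with no call for Myc, and Asxl1-MT2 alone gave no call for any of the 9 members tested. The following paragraphs take the genes by role, and the calls are edgeR quasi-likelihood tests at an adjusted p under 0.05 across all 11578 genes. Of the 10 members 9 were tested; Mycl, with 1 count in the whole table, was not.

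**Figure D1:**
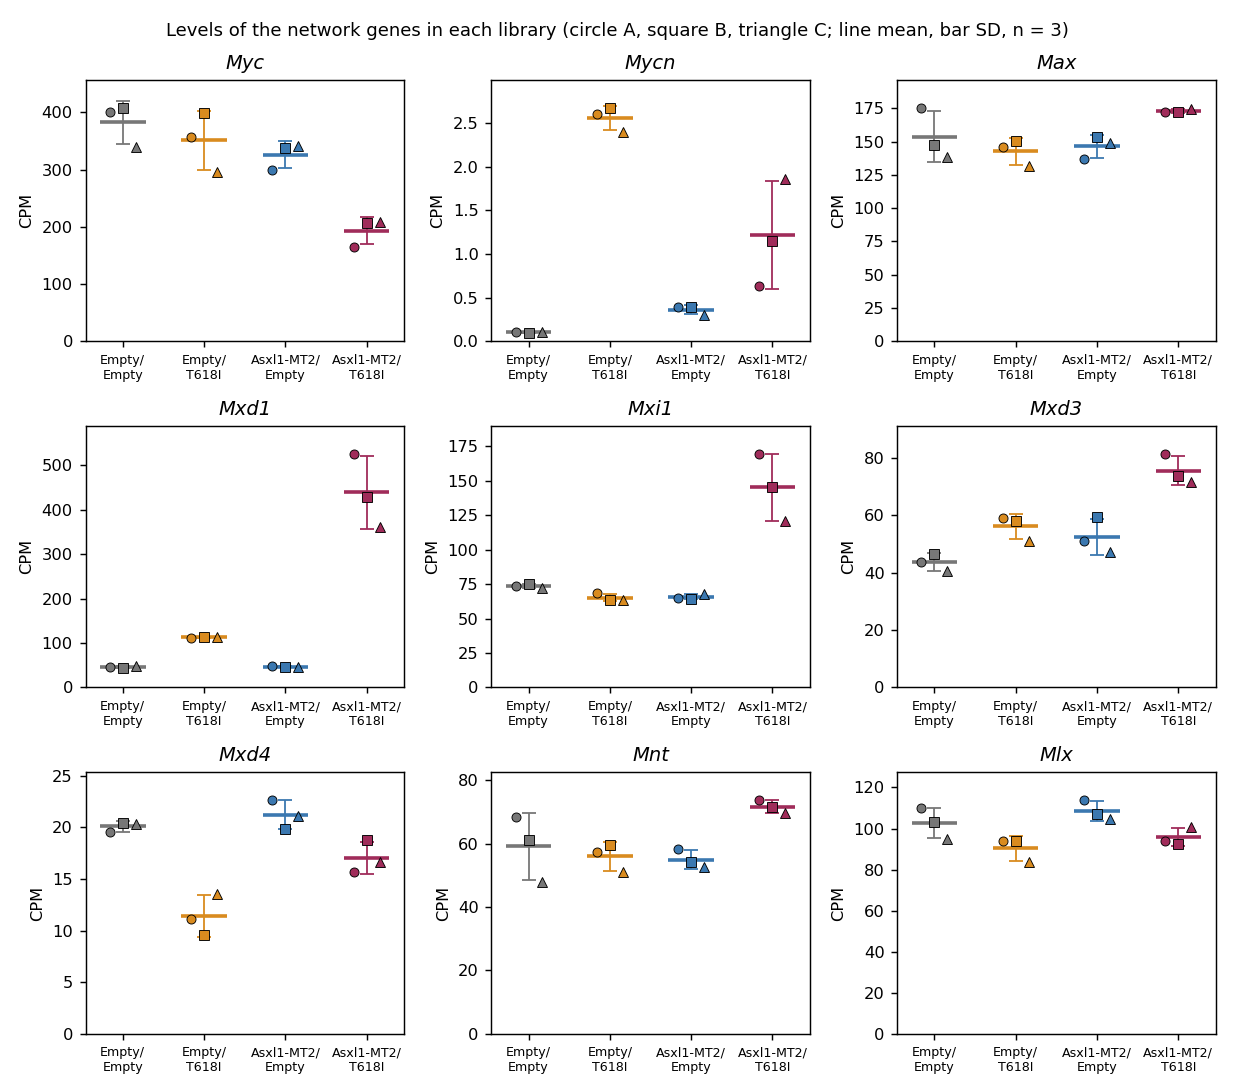
Levels of 9 network genes in CPM, 1 point per library (circle A, square B, triangle C), with the mean as a line and the SD as a bar (n = 3); every axis starts at 0 and has its own range. The 3 Asxl1-MT2/T618I libraries have the lowest Myc values (166 to 208 CPM) and the highest Mxd1 values (362 to 525 CPM) of the 12.

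Mycn passed the low-count filter only through the T618I groups, where it is high, so it had to differ and is left out of the following counts. Of the other 8 members tested, 2 were higher and 1 was lower in Empty/T618I than in Empty/Empty, where 17.6% of all genes were higher and 15.9% lower. In Asxl1-MT2/Empty against Empty/Empty edgeR called 0 members, where 1.24% of all genes were higher and 0.622% lower. There, 1 of the 8 (Mxd3) had an unadjusted p under 0.05, beside 1263 of all 11578 genes, and DESeq2 also called 0. In Asxl1-MT2/T618I, 6 members were higher and 1 lower than in Empty/T618I, where 25.4% of all genes were higher and 18.5% lower. Against Asxl1-MT2/Empty, 5 were higher and 2 lower, beside 26.9% and 22.8% of all genes. Against Empty/Empty, 4 were higher and 1 lower, beside 27.5% and 23.1%. The interaction, which is the difference between the Asxl1-MT2 effect with T618I and that without it, was positive for 3 members and negative for 1, beside 14.1% and 5.51% of all genes. These comparisons share groups and so are not independent of each other. The 8 members' median log2 fold change was -0.12 for T618I alone, -0.03 for Asxl1-MT2 alone and 0.39 for Asxl1-MT2 in T618I cells, where the medians over all tested genes were 0.00, 0.00 and 0.01.

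**Figure D2:**
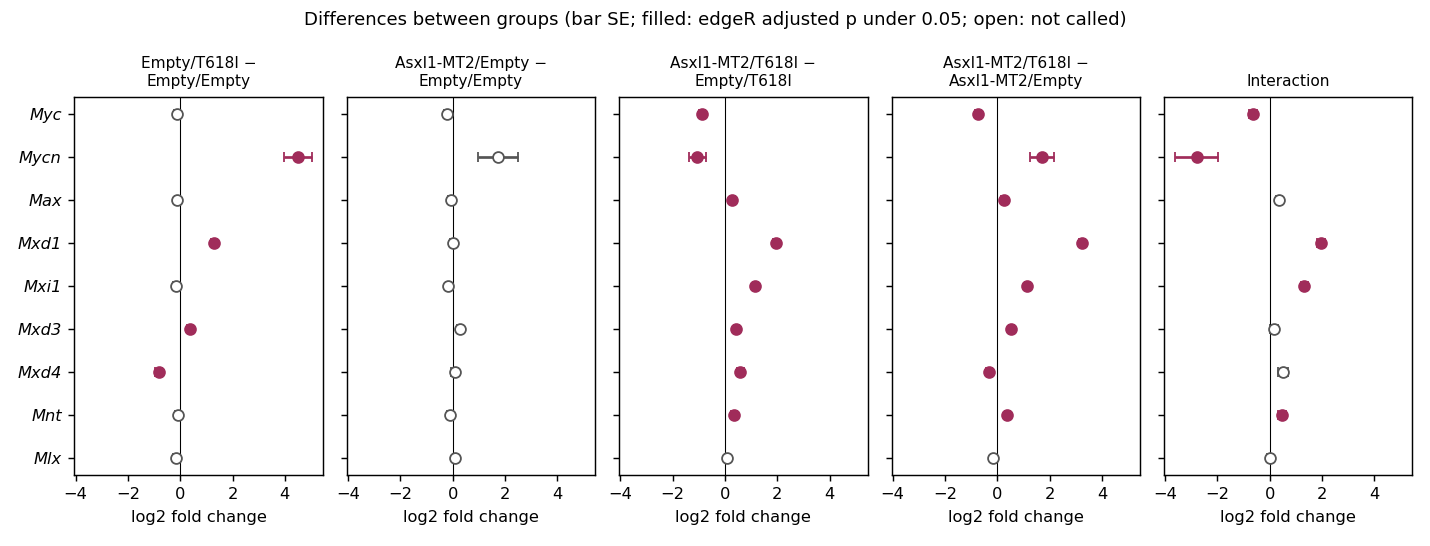
Log2 fold changes with their SE for the 9 tested members in 4 comparisons and the interaction; filled points passed an adjusted p under 0.05 in edgeR. Asxl1-MT2 alone has open points throughout, and Mxd1 is at 1.29, 1.96 and 3.24 in the comparisons of the T618I groups. Filled points of Mycn are no result, because it passed the low-count filter only through the T618I groups.

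Myc (chr15:61985391-61990374, plus strand), the family member that drives growth of progenitors, was the most abundant member per kb of exon in all 4 groups. In the order of libraries A, B and C it was at 400.0, 408 and 339.7 CPM across the Empty/Empty libraries, 358, 399.6 and 296 in those of Empty/T618I, 299, 338 and 342 in those of Asxl1-MT2/Empty, and 166, 206 and 208 in those of Asxl1-MT2/T618I. The first 3 groups overlapped, and the Asxl1-MT2/T618I libraries lay below the other 9. Myc fell by 0.86 ± 0.115 (log2 fold change ± SE, adjusted p = 1.33e-05, edgeR) against Empty/T618I and by 0.76 ± 0.115 (adjusted p = 3.41e-05) against Asxl1-MT2/Empty. The log2 fold change was -0.12 for T618I alone (adjusted p = 0.438, edgeR). The interaction was -0.63 ± 0.161 (adjusted p = 0.0104, edgeR), so the Asxl1-MT2 effect on Myc differed between cells with and without T618I.

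Mycn (chr12:12936093-12941914, minus strand), the paralog of Myc best known from neural tissue and stem cells, was near the limit of counting. Its counts were 1, 1 and 1 in Empty/Empty cells, 27, 28 and 23 in Empty/T618I cells, 4, 4 and 3 in Asxl1-MT2/Empty cells, and 6, 11 and 18 in Asxl1-MT2/T618I cells. The Empty/T618I libraries had the highest counts. Summed over a group and scaled to library size, counts were 25.3 times those of Empty/Empty in Empty/T618I and 12.1 times in Asxl1-MT2/T618I. These ratios describe the counts and are not a test. The fitted differences of Mycn are given as a description without p-values, because the gene passed the filter only through the T618I groups. From Empty/T618I to Asxl1-MT2/T618I it fell by 1.06 ± 0.328, with log2 fold changes of -1.58 to -0.76 over 19 alternatives. Its rise from Asxl1-MT2/Empty to Asxl1-MT2/T618I was 1.71 ± 0.462 (1.16 to 2.01 over 18 alternatives). Its interaction was -2.79 ± 0.827 (-3.42 to -2.49 over 18 alternatives). Fitted folds of so few counts depend on the prior count. Even in Empty/T618I the Mycn level per kb of exon was 0.776 CPM, against 129 for Myc. Mycl (chr4:122995652-123002485, plus strand), the third paralog, had its single count in Empty/T618I library C.

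Max (chr12:76937269-76962201, minus strand), the partner that MYC and the MXD proteins both need, was similar across the groups, and rose slightly in the cells with both constructs. It was at 175, 147 and 139 CPM across the Empty/Empty libraries, 146, 151 and 131 in those of Empty/T618I, 137, 153 and 149 in those of Asxl1-MT2/Empty, and 172, 172 and 174 in those of Asxl1-MT2/T618I. The double-construct libraries lay above those of both single-construct groups and below Empty/Empty library A. Max rose by 0.28 ± 0.0891 (adjusted p = 0.0178, edgeR) against Empty/T618I and by 0.24 ± 0.0890 (adjusted p = 0.0333) against Asxl1-MT2/Empty. Each call was lost in 6 of 19 alternatives (adjusted p up to 0.146 and 0.304). Against Empty/T618I these include leaving out library A or C of Empty/T618I or B or C of Asxl1-MT2/T618I (adjusted p 0.0549 to 0.123), and against Asxl1-MT2/Empty leaving out its library A or C or any Asxl1-MT2/T618I library (0.0520 to 0.132). Against Empty/Empty the log2 fold change was 0.17 for Max (adjusted p = 0.123, edgeR), and it passed without Empty/Empty library A (0.27, adjusted p = 0.0176).

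Mxd1 (chr6:86647042-86669161, minus strand), the antagonist induced during granulocyte maturation, rose in both T618I groups. It was at 46.4, 42.7 and 49.0 CPM across the Empty/Empty libraries, 111, 114 and 113 in those of Empty/T618I, 47.6, 46.0 and 45.9 in those of Asxl1-MT2/Empty, and 525, 428 and 362 in those of Asxl1-MT2/T618I. The groups without T618I overlapped, every Empty/T618I library lay above them, and every Asxl1-MT2/T618I library lay above those. Mxd1 rose with T618I alone by 1.29 ± 0.111 (adjusted p = 8.51e-08, edgeR) and with Asxl1-MT2 in T618I cells by a further 1.96 ± 0.107 (adjusted p = 1.62e-09). Without T618I the effect of Asxl1-MT2 was 0.01 ± 0.114, and the interaction was 1.94 ± 0.155 (adjusted p = 2.27e-06, edgeR). The promoter printed above belongs to this gene.

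Mxi1 (chr19:53310518-53375810, plus strand), a further MYC antagonist, rose in the double-construct cells and was not called for T618I alone. It was at 73.3, 75.0 and 72.3 CPM across the Empty/Empty libraries, 68.3, 63.8 and 63.3 in those of Empty/T618I, 65.3, 64.5 and 67.7 in those of Asxl1-MT2/Empty, and 169, 145 and 121 in those of Asxl1-MT2/T618I. The single-construct groups overlapped each other and lay below Empty/Empty, while the double-construct libraries lay far above the other 9. Its log2 fold change was -0.17 for T618I alone (adjusted p = 0.202, edgeR). Mxi1 rose by 1.16 ± 0.0993 (adjusted p = 1.01e-07, edgeR) against Empty/T618I, with an interaction of 1.32 ± 0.141 (adjusted p = 1.45e-05). Its exons overlap Gm10197 on the other strand, and without the strand setting reads of the pair cannot be told apart.

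Mxd3 (chr13:55325168-55329823, minus strand), the member that is found in dividing cells, was at 43.8, 46.6 and 40.5 CPM in Empty/Empty cells and 59.0, 58.1 and 51.1 in Empty/T618I cells. It was at 51.1, 59.4 and 47.1 in Asxl1-MT2/Empty cells and 81.3, 73.5 and 71.7 in Asxl1-MT2/T618I cells, where all 3 libraries exceeded the other 9. Mxd3 rose by 0.36 ± 0.100 with T618I alone (adjusted p = 0.00955, edgeR) and by 0.43 ± 0.0976 with Asxl1-MT2 in T618I cells (adjusted p = 0.00194), and the interaction was 0.16 (adjusted p = 0.454). Its exons overlap those of Prelid1 on the other strand, and the strand setting of the counting is not given in the sources used here. Prelid1 counts ran from 3054 to 3342 in Empty/Empty cells, 3838 to 4472 in Empty/T618I cells, 3643 to 3977 in Asxl1-MT2/Empty cells and 4801 to 5728 in Asxl1-MT2/T618I cells, in the same order as Mxd3, so the Mxd3 values are uncertain.

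Mxd4 (chr5:34173883-34187720, minus strand), an antagonist of resting and mature cells, went the other way with T618I. It was at 19.5, 20.5 and 20.3 CPM across the Empty/Empty libraries, 11.2, 9.54 and 13.6 in those of Empty/T618I, 22.6, 19.8 and 21.2 in those of Asxl1-MT2/Empty, and 15.7, 18.8 and 16.6 in those of Asxl1-MT2/T618I. The Empty/T618I libraries were the lowest, the double-construct libraries were next, and neither overlapped another group. Mxd4 fell by 0.82 ± 0.132 with T618I alone (adjusted p = 0.000101, edgeR) and rose by 0.58 ± 0.134 with Asxl1-MT2 in T618I cells (adjusted p = 0.00206). Its fall of 0.31 ± 0.126 from Asxl1-MT2/Empty to Asxl1-MT2/T618I (adjusted p = 0.0477, edgeR) was lost in 13 of 19 alternatives, with an adjusted p of up to 0.153. Among these was the removal of any Empty/Empty or Asxl1-MT2/Empty library, of Empty/T618I library A, or of Asxl1-MT2/T618I library A or C (adjusted p 0.0514 to 0.153). The Mxd4 interaction was 0.50 (adjusted p = 0.0612, edgeR), and it passed without Empty/T618I library C (0.63, adjusted p = 0.0220).

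Mnt (chr11:74830920-74845725, plus strand), the antagonist found in most cell types, was at 68.5, 61.1 and 47.8 CPM in Empty/Empty cells and 57.5, 59.5 and 50.9 in Empty/T618I cells. It was at 58.2, 54.1 and 52.5 in Asxl1-MT2/Empty cells and 73.7, 71.5 and 69.7 in Asxl1-MT2/T618I cells. The double-construct libraries were the highest of the 12, but by a small margin over Empty/Empty library A. Mnt rose by 0.36 ± 0.109 against Empty/T618I (adjusted p = 0.0137, edgeR), lost under upper-quartile scaling (0.0776) and without Empty/T618I library C (0.0843). Against Empty/Empty it rose by 0.28 ± 0.108 (adjusted p = 0.0425, edgeR), and this was lost in 12 of 19 alternatives; the interaction of 0.46 ± 0.154 (adjusted p = 0.0440) was lost in 11 of 18. The first did not pass when library B or C of Empty/Empty was left out, nor without Empty/T618I library A, Asxl1-MT2/Empty A or B, or any Asxl1-MT2/T618I library (adjusted p 0.0503 to 0.214). The interaction of Mnt was lost without Empty/Empty library A or B, Asxl1-MT2/Empty B or C, or any library of the T618I groups (adjusted p 0.0514 to 0.128).

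Mlx (chr11:101087277-101092207, plus strand) pairs with MondoA, with MNT and with some MXD proteins in place of MAX. It was at 109.8, 103 and 94.9 CPM across the Empty/Empty libraries, 93.9, 94.0 and 83.5 in those of Empty/T618I, 114, 107 and 105 in those of Asxl1-MT2/Empty, and 94.1, 92.5 and 101 in those of Asxl1-MT2/T618I. No comparison of Mlx passed the test in edgeR, and the Empty/T618I libraries lay just below those of Empty/Empty, while both T618I groups lay below Asxl1-MT2/Empty. Its log2 fold change against Asxl1-MT2/Empty was -0.18 (adjusted p = 0.0741, edgeR), which passed under upper-quartile scaling (-0.31, adjusted p = 0.00495) and without the letter C libraries (-0.24, adjusted p = 0.0147). Against Empty/Empty it was -0.10, and it passed in the same settings (-0.23 and -0.20, adjusted p = 0.0244 and 0.0345, edgeR). Mlx exons overlap those of Psmc3ip on the other strand, which had 123 to 186 counts per library, so the Mlx values too are uncertain. Mxd4 exons overlap Gm42846 on the other strand, with the same doubt. Of the partners outside the 10 genes, Mlxip, which encodes MondoA, rose by 0.26 ± 0.0921 from Empty/T618I to Asxl1-MT2/T618I (adjusted p = 0.0287, edgeR). Mga, which encodes a MAX-binding repressor, fell by 0.31 ± 0.119 from Asxl1-MT2/Empty to Asxl1-MT2/T618I (adjusted p = 0.0372).

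Levels per kb of exon (all annotated exons of a gene merged, annotation GENCODE M21, build GRCm38) put the genes on 1 scale. In Empty/Empty the order was Myc (141 ± 13.8 CPM per kb, mean ± SD, n = 3), Mlx (51.3 ± 3.74), Max (42.7 ± 5.33), Mxd3 (18.4 ± 1.28), Mnt (12.8 ± 2.27), Mxi1 (10.8 ± 0.195), Mxd1 (6.51 ± 0.445) and Mxd4 (2.37 ± 0.0599). Mnt and Mxi1 lay within their spread there. In Asxl1-MT2/T618I the order was Myc (71.1 ± 8.81), Mxd1 (62.0 ± 11.6), Max (48.1 ± 0.329), Mlx (47.9 ± 2.21), Mxd3 (31.9 ± 2.16), Mxi1 (21.3 ± 3.55), Mnt (15.5 ± 0.429) and Mxd4 (2.01 ± 0.187). Mxd1 had moved from seventh to second place, and Myc and Mxd1, and Max and Mlx, lay within their spread.

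The balance of the network was described by the log2 CPM of Myc less the mean log2 CPM of the 5 antagonists Mxd1, Mxi1, Mxd3, Mxd4 and Mnt, each with 0.5 CPM added before the log. It was 3.09 ± 0.0938 in Empty/Empty cells, 2.84 ± 0.221 in Empty/T618I cells, 2.84 ± 0.139 in Asxl1-MT2/Empty cells and 1.09 ± 0.292 in Asxl1-MT2/T618I cells (mean ± SD, n = 3). The double-construct libraries stood at 0.77, 1.17 and 1.34 and the other 9 between 2.61 and 3.16. No test is given for this value. Per kb of exon, the antagonists summed to 50.9 ± 3.04 CPM across the Empty/Empty libraries, 62.6 ± 2.74 in those of Empty/T618I, 52.8 ± 2.48 in those of Asxl1-MT2/Empty and 133 ± 17.6 in those of Asxl1-MT2/T618I. Myc was 2.76, 2.06, 2.28 and 0.547 times that sum in the same order of groups. Mxd3, at 18.4 CPM per kb in Empty/Empty cells and 31.9 in Asxl1-MT2/T618I cells, is part of these sums. The strand doubt given above for Mxd3, Mxi1 and Mxd4 applies to the sums, the ratios and the balance, which was not run without Mxd3. Mxd1 made up 12.9% of the sum in Empty/Empty, 25.5% for Empty/T618I, 12.5% for Asxl1-MT2/Empty and 46.5% for Asxl1-MT2/T618I. RNA levels say nothing of protein or of which dimers formed.

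**Figure D3:**
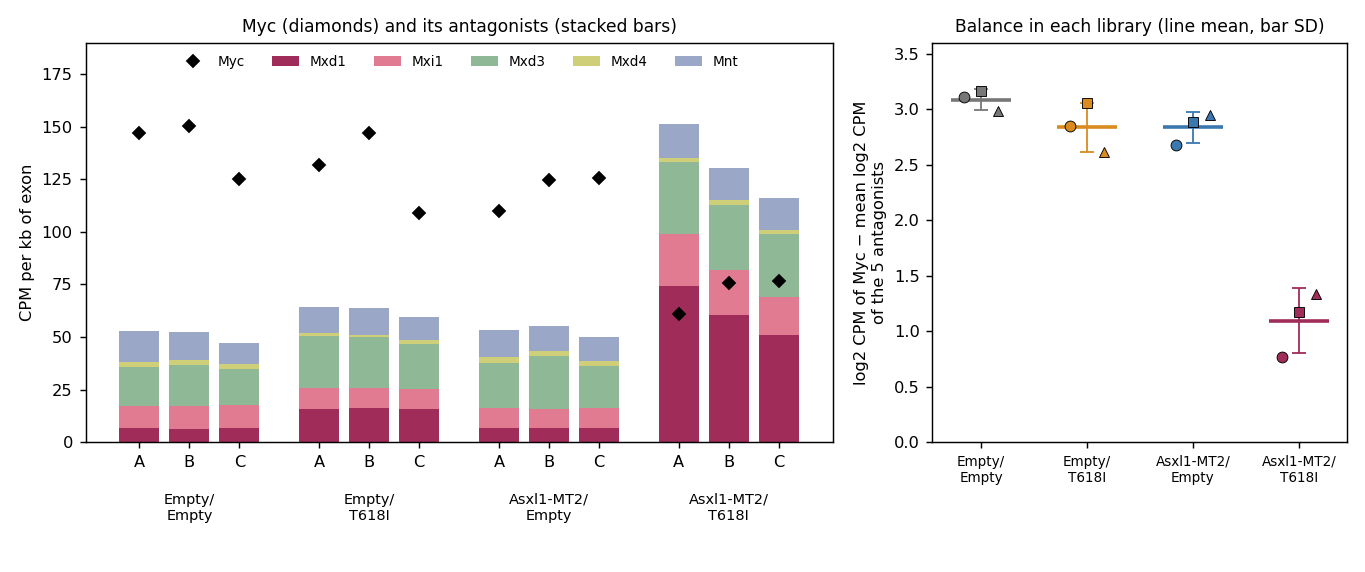
Left, CPM per kb of exon in each library, with Myc as a diamond and the 5 antagonists as stacked bars; right, the balance in each library, with the mean as a line and the SD as a bar (n = 3). The diamonds lie above the bars in 9 libraries and inside them in the 3 Asxl1-MT2/T618I libraries, whose balance is 0.77 to 1.34.

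Library A of Asxl1-MT2/T618I was the most extreme of its group. It had the lowest Myc and Mycn and the highest Mxd1, Mxi1, Mxd3 and Mnt, and also the highest Csf3r (1688 CPM, against 1334 and 967 in libraries B and C) and Socs3 (264, against 228 and 196). Its summed monocyte markers were 1415 CPM, against 1206 and 1033. Without it, the calls for Myc, Mxd1, Mxi1, Mxd3 and Mxd4 against Empty/T618I still passed. The part of this library's other values in the network's levels was not tested.

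Genes that MYC is known to induce, a list of ribosome assembly, nucleotide, metabolic and cell cycle genes with 39 of 40 tested, were lower in Asxl1-MT2/T618I than in Empty/T618I. Of the 39, 38 fell, beside 18.5% of all genes (median log2 fold change -0.56, against 0.01 over all genes). The other, Ccnd2, was not called (adjusted p = 0.0696, edgeR). Gnl3, a nucleolar GTPase, was at 120 CPM in Empty/Empty cells, 140.0 in Empty/T618I cells, 106 in Asxl1-MT2/Empty cells and 77.3 in Asxl1-MT2/T618I cells, and fell by 0.86 ± 0.0948 (adjusted p = 1.76e-06, edgeR) against Empty/T618I. Wdr43, a ribosome assembly factor, fell by 0.74 ± 0.0867 (adjusted p = 3.51e-06). For T618I alone, 20 of the 39 rose and 2 fell (median 0.26), beside 17.6% and 15.9% of all genes. The amino acid transporter Slc7a5 was at 321 and 1022 CPM without and with T618I, and the cyclin Ccnd2 at 193 and 55.1. Of the 39, 12 rose without library B of either group, and 1 fell without Empty/Empty library B or Empty/T618I library A or C. For Asxl1-MT2 alone 0 of 39 were called in edgeR and in DESeq2. With 1.24% of all genes higher and 0.622% lower, a count of 0 is near the background. At an unadjusted p under 0.05, 6 of the 39 were lower and 0 higher, where 1263 of all 11578 genes passed in both directions together. The list's median log2 fold change for Asxl1-MT2 alone was -0.105, against 0 over all genes. The interaction was negative for 29 of 39, beside 5.51% of all genes (16 without Asxl1-MT2/T618I library A, 17 without Empty/Empty library B, 19 without Asxl1-MT2/Empty library C). Nop56, a core snoRNP protein, was at -0.58 there (adjusted p = 0.00171, edgeR). Against Asxl1-MT2/Empty, 19 fell and 3 rose, beside 22.8% and 26.9% of all genes. Without Asxl1-MT2/T618I library A 11 fell, and 30 fell under upper-quartile scaling. Under that scaling 1 rose, and 1 rose without Asxl1-MT2/Empty library A. The fall against Empty/T618I held for 37 to 39 genes in every alternative run. The E-box was in the promoters of 9 of the 33 genes of this list with promoter sequence (27.3%), beside 8.09% of all genes. For the 2 target lists below it was in 2 of 11 Myc-repressed genes and 4 of 9 MondoA targets.

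Genes that MYC is known to repress, with 14 of 18 tested, gave 10 higher and 2 lower in Asxl1-MT2/T618I than in Empty/T618I (median log2 fold change 0.62, against 0.01 over all genes). There, 25.4% of all genes were higher and 18.5% lower. Klf6, a zinc finger factor, was at 34.6, 56.4, 37.0 and 144 CPM in the order Empty/Empty, Empty/T618I, Asxl1-MT2/Empty, Asxl1-MT2/T618I, and rose by 1.35 ± 0.119 (adjusted p = 1.36e-07, edgeR). Ndrg1, a stress-induced gene, rose by 1.11 ± 0.110 (adjusted p = 4.78e-07), and Cebpa, a granulocyte regulator, fell by 0.27 ± 0.0977 (adjusted p = 0.0335). The other gene that fell was Itga6, an integrin gene, by 0.29 ± 0.114 (adjusted p = 0.0491, edgeR). T618I alone raised 5 and lowered 4, beside 17.6% and 15.9% of all genes. Among them were Cdkn1a, which encodes the cell cycle inhibitor p21 (29.4 to 98.1 CPM), and Thbs1, which encodes a matrix protein (1830 to 189 CPM). The interaction was positive for 8 of 14 in edgeR, beside 14.1% of all genes.

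Targets of MondoA and MLX, with 8 of 10 tested, gave 6 higher in Asxl1-MT2/T618I than in Empty/T618I (median log2 fold change 0.75, against 0.01 over all genes). The other 2 were not called, and 25.4% of all genes were higher there. Txnip, an inhibitor of glucose uptake, was at 110.5, 137, 102 and 326 CPM in the same order of groups and rose by 1.25 ± 0.130 (adjusted p = 8.62e-07, edgeR). Klf10 rose by 0.73 ± 0.114 (adjusted p = 7.54e-05). For T618I alone, where 17.6% of all genes were higher and 15.9% lower, 1 of the 8 rose (Hk2, by 0.29) and 1 fell (G6pc3, by 0.68), no more than the background; the rise was lost without Empty/Empty library A or Empty/T618I library C.

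**Figure D4:**
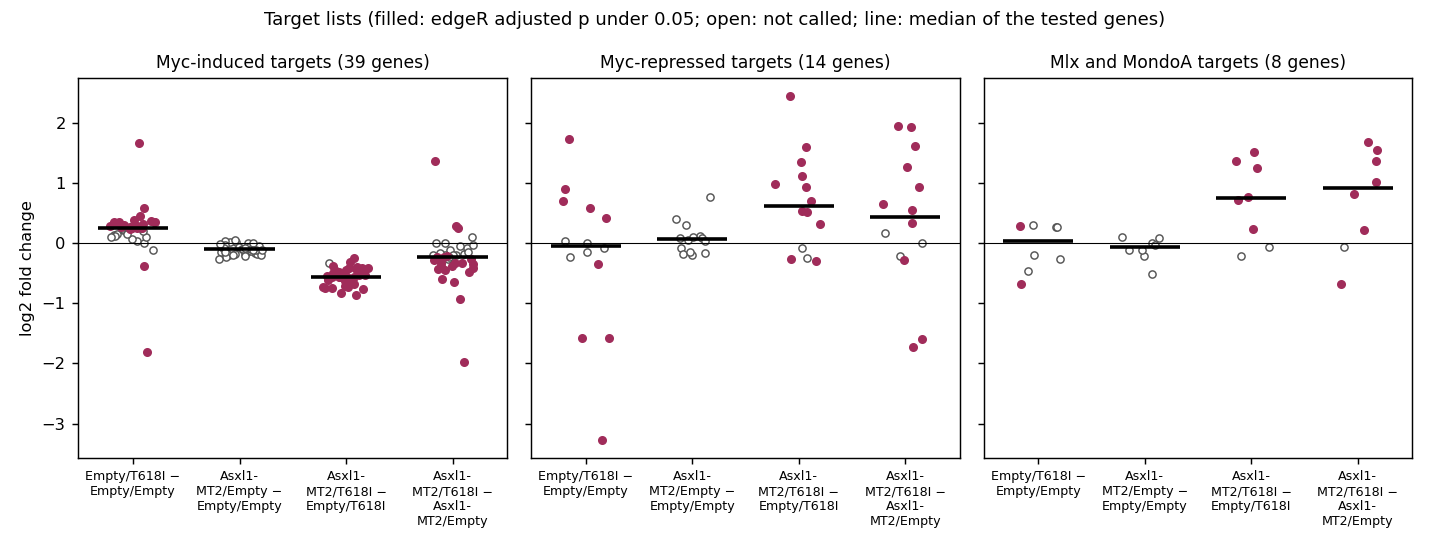
Log2 fold changes of the tested genes of 3 target lists in 4 comparisons; filled points passed an adjusted p under 0.05 in edgeR and lines are medians over the list. In Asxl1-MT2/T618I against Empty/T618I the Myc-induced genes centre on -0.56, the Myc-repressed on 0.62 and the MondoA targets on 0.75.

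Cofactors were called in both directions from Empty/T618I to Asxl1-MT2/T618I, where 25.4% of all genes were higher and 18.5% lower. The lists are short and their counts were not tested against these shares, so the counts are no result about cofactors. Of 14 Myc coactivators, 4 rose and 4 fell: the acetyltransferase genes Crebbp (by 0.37 ± 0.0975, adjusted p = 0.00592, edgeR) and Ep300 (by 0.35 ± 0.0949) rose, and the ATPase genes Ruvbl1 (by 0.64 ± 0.107) and Ruvbl2 (by 0.50 ± 0.0931) fell. Of 15 corepressor genes 3 rose, among them Arid4a (by 0.41 ± 0.0889) and Sin3b (by 0.29 ± 0.0950), and 2 fell, Rbbp7 (by 0.45 ± 0.0793) and Hdac2 (by 0.36 ± 0.0892). Of 14 tested genes of Myc protein turnover 1 rose and 3 fell, with the ubiquitin ligase genes Fbxl14 at 0.33 ± 0.0751 and Skp2 at -0.40 ± 0.0887. Of 24 genes of S and G2/M phase, E2f2 rose by 0.93 ± 0.112 (153 to 292 CPM, adjusted p = 4.23e-06, edgeR) while Mcm2 and Mcm3 fell by 0.23 and 0.28, leaving 21 of 24 not called.

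Genes with a pattern most like that of Myc were found by the root mean square difference of centred log2 CPM over the 12 libraries, among 9709 genes of at least 5 CPM on average. They were Kdelc1 (0.0990), Dctd (0.124), Ankrd63 (0.133), Rangrf (0.135) and Abi2 (0.136). Kdelc1, an endoplasmic reticulum protein gene, was at 64.7, 55.4, 55.5 and 34.3 CPM in the order Empty/Empty, Empty/T618I, Asxl1-MT2/Empty, Asxl1-MT2/T618I. The genes most like Mxd1 were Fbxl5 (0.159), Fcgr4 (0.168), St3gal5 (0.171), Lcn2 (0.173) and Fosl2 (0.184). Fbxl5, an iron-sensing ubiquitin ligase gene, was at 30.9, 85.5, 31.2 and 254 CPM, and Lcn2, a neutrophil granule protein gene, at 305, 841, 347 and 3460. The likeness was a ranking with no test.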

How the data were processed

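RNA was sequenced from 12 libraries of HoxB8 cells. The authors deposited raw counts per gene symbol, with a column for each library. They used Trimmomatic, STAR and DESeq2 with build mm10, per the submitters' processing notes; versions, the counting tool, the annotation and the strand setting are not given in the sources used here. Columns name the constructs and a letter. Each column was put in its group by its name, matched to the constructs in the titles, and nothing links the letter to the numbers in the titles.

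Counts were filtered with filterByExpr, scaled by TMM and fitted with a mean per group in edgeR 4.0.16 (R 4.3.3), with quasi-likelihood tests and Benjamini-Hochberg adjustment over the 11578 symbols tested, which held 99.94% of the counts. DESeq2 1.42.0 was one alternative; others were DESeq2 size factors and upper-quartile scaling, no low-count filter, fits of the compared groups alone, the column letter as a block, and each library left out in turn. A pseudocount of 0.5 CPM was added before log2 in the balance and the likeness ranking, and levels were also divided by exon length. Named genes are the 10 members, the construct and Hoxb8 check genes, up to 2 called genes per direction with the smallest adjusted p in each pathway list and comparison, and the 5 genes most like Myc and Mxd1. Genes named outside this rule (Prelid1, Psmc3ip, Gm10197, Gm42846 and the marker genes) were chosen after their values were seen. The members and lists were chosen with earlier results of these data known.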

Additional observations from a re-analysis of the deposited data

Results flagged for a closer look

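The effect of Asxl1-MT2 differed between cells with and without T618I for 4 members, each by edgeR's interaction term with Benjamini-Hochberg adjustment. The interaction was 1.94 for Mxd1, 1.32 for Mxi1, 0.46 for Mnt and -0.63 for Myc on the log2 scale, and in these 4 the larger effect was seen in T618I cells. The Mnt call did not hold in 11 of 18 alternatives (adjusted p up to 0.128), while the other 3 held in all of them. For Mycn the term was -2.79, but that gene entered the test only through the T618I groups and had 1 count in each Empty/Empty library, so its value supports nothing.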

How the results depend on the processing

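The calls for Myc, Mxd1, Mxi1 and Mxd3 kept their side of the threshold and direction under each alternative run where they were made, as did those of Mxd4 for T618I alone and for Asxl1-MT2 in T618I cells. For Asxl1-MT2 alone, the 215 genes called became 359 with no low-count filter, 386 without the letter C libraries and 60 to 276 with 1 library left out. The 5 members called in the interaction (Mycn included, whose call is no result) became 3 to 6 with 1 library left out. With the log2 of summed CPM in place of the mean log2, the balance difference was -2.16 (reported value -1.74) against Empty/T618I, -2.38 (-1.75) against Asxl1-MT2/Empty, -2.60 (-1.99) against Empty/Empty and -1.94 (-1.50) for the interaction. With the column letter as a replicate block, the interaction gave 6 members, Mycn again included, adding Max (0.35, adjusted p = 0.0427, edgeR), and no member's call was lost. Deviations from the group means correlated at -0.06 to 0.22 between libraries of the same letter, over 0.1 in 7 of 18 pairs (3 of letter A and 4 of letter C). A library correlated best with its own letter in 19 of 36 comparisons with another group. What the letters mark is not given.

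Signs turned only for values that were not called. The Mlx difference from Empty/T618I was -0.031 under upper-quartile scaling and -0.043 without the letter C libraries. The Mlx interaction was -0.000746 with DESeq2 size factors, -0.11 under upper-quartile scaling, -0.00408 with DESeq2, -0.00473 without a filter and -0.082 without letter C. With 1 library left out it ran from -0.070 to 0.046, and the T618I effect from -0.21 to 0.0039 for Myc and from -0.19 to 0.038 for Mnt. The Asxl1-MT2 effect ran from -0.15 to 0.034 for Max, -0.049 to 0.050 for Mxd1 and -0.25 to 0.012 for Mnt.

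Upper-quartile scaling moved the median of all genes to -0.10, -0.14 and -0.15 for Asxl1-MT2/T618I against Empty/T618I, Asxl1-MT2/Empty and Empty/Empty. The percentage of called genes that were higher went from 57.8 to 40.9, from 54.1 to 37.8 and from 54.4 to 38.1, and for the interaction from 71.9 to 47.5 (60.1 without letter C). Mycn rests on few counts, and group sizes of 3 limit small differences.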
